A study of Mus musculus with 6 samples.

Results

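Genes that carry out mitosis and build the spindle were followed in mouse bone marrow macrophages that expressed a chimeric RANK receptor. The 33 genes were listed by their known roles in mitosis, with earlier results of these data known. Of them, 32 had a probe set annotated to their symbol alone. Cyclin B1 (Ccnb1) had none in the annotation used and is not analysed here. These 32 are among 10372 genes that were bright enough to test, of 18193 named on the array. Each gene is represented by its annotated probe set with the highest mean intensity over the 6 arrays, and 22 of the 32 had several. All 32 passed the filter on dim probe sets, and 31 lay above the median of their own array on all 6 arrays. Ttk lay below it on mutant array 3.

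The cells were bone marrow macrophages of strain C57BL/6 mice lacking TNF receptors 1 and 2 (TNFR1-/-R2-/-), and so without a TNF receptor of their own. A retrovirus delivered a receptor made of the mouse TNFR1 external domain joined to the transmembrane and intracellular domain of RANK. The wild-type receptor kept the RANK part intact (3 arrays), whereas the mutant receptor had inactivating mutations in the IVVY motif (3 arrays). For both receptors, infected cells were selected for 3 days in 2 ug/ml puromycin and then kept for 24 hours with 44 ng/ml of M-CSF, the growth factor of macrophages, and 10 ng/ml of TNF alpha. Each Affymetrix Mouse Genome 430 2.0 array held RNA pooled from 6 dishes. The preparation was made in 3 independent assays. Arrays of the same replicate number, 1 mutant and 1 wild-type, are taken here as 1 assay. By its title, the study set out to find genes that this motif regulates. Whether separate mice or infections stood behind the assays is not stated in the labels, and no group without TNF or without a chimeric receptor was used here.

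Dividing cells switch on the genes of mitosis together, late in the cycle, after those of DNA replication. Cdk1 with a mitotic cyclin starts mitosis, the spindle and its motor proteins align the chromosomes, and the checkpoint at the kinetochores holds the anaphase-promoting complex until all are attached. That complex then marks cyclins and securin for destruction, separase cuts cohesin, and the cell divides. FOXM1 and the MuvB complex, of which LIN9 is a subunit, drive the transcription of these genes. Bone marrow macrophages divide in response to M-CSF and leave the cycle when they become osteoclasts, so the RNA of these genes is a common measure of how many cells of a culture are cycling. In RNA from whole cultures, fewer dividing cells and less RNA per dividing cell cannot be told apart.

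The median intensity of all probe sets was 8.86 to 9.38 on the 6 arrays, and 42.8% to 44.1% of probe sets read above 16. Precision is limited by the small number of arrays. All 8 macrophage markers lay above the array median on every array, the lowest reading being 828. Of 10 markers of stromal cells, 8 lay above the median on each array of assay 3, where their summed intensity reached 5187 (mutant) and 3737 (wild type), against 72.3 to 182 on the other 4 arrays. In assay 2 the sum was 182 with the mutant receptor and 94.9 with the intact one, with 6 and 2 of the 10 markers above the median. None of the 7 neutrophil and 4 erythroid markers measured lay above the median on any array. Of the 5 lymphoid markers 1 did, with a highest reading of 11.7. Of 5 stem and progenitor markers, Kit, Flt3 and Myb lay below the array median on every array. Cd34 read 57.0 and 114 on the mutant and wild-type arrays of assay 1 and at most 5.86 elsewhere, and Sox4 had the opposite order, with 86.7 and 27.7 in assay 1, 171 and 94.9 in assay 2, and 211 and 314 in assay 3. The summed intensity of 8 osteoclast markers ran from 1117 to 1879 with the mutant receptor and from 8534 to 26865 with the intact one. The part of these other cells in the results below was not tested.

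The intensities of the mitosis genes depended first on the assay and differed between the receptors mainly in assay 2. In assay 2 the mutant had the lower reading for 31 of the 32 genes, where it had it for 45.9% of all 22497 probe sets tested, and the higher one for 1 (54.1%). The median log2 difference there was -1.10, a 2.14-fold lower level. Of the 31, 18 were at least 2-fold lower (2.48% of all probe sets), and Lin9 was at least 2-fold higher (1.4%). In assay 1, 27 of the 32 read higher in the mutant (47.1% of all probe sets) and 5 lower (52.9%). The median was 0.22, and 0 were at least 2-fold higher (0.485% of all probe sets were) or lower (0.498%). In assay 3, 16 were lower (46.4% of all probe sets) and 16 higher (53.6%). The median was -0.01, and 0 differed by 2-fold in either direction (0.996% of all probe sets were lower and 0.0756% higher by that much). Assay 2 had the largest difference of the 3 pairs for 29 genes. With 1 pair per assay, neither a pair's difference nor its departure from the other pairs has a replicate check. All differences are on the log2(intensity + 16) scale, coded as mutant minus wild type, and understate those of dim genes. The count of 18 was 11 when each gene was the mean of all its probe sets, and 12 with a pseudocount of 64.

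**Figure D1:**
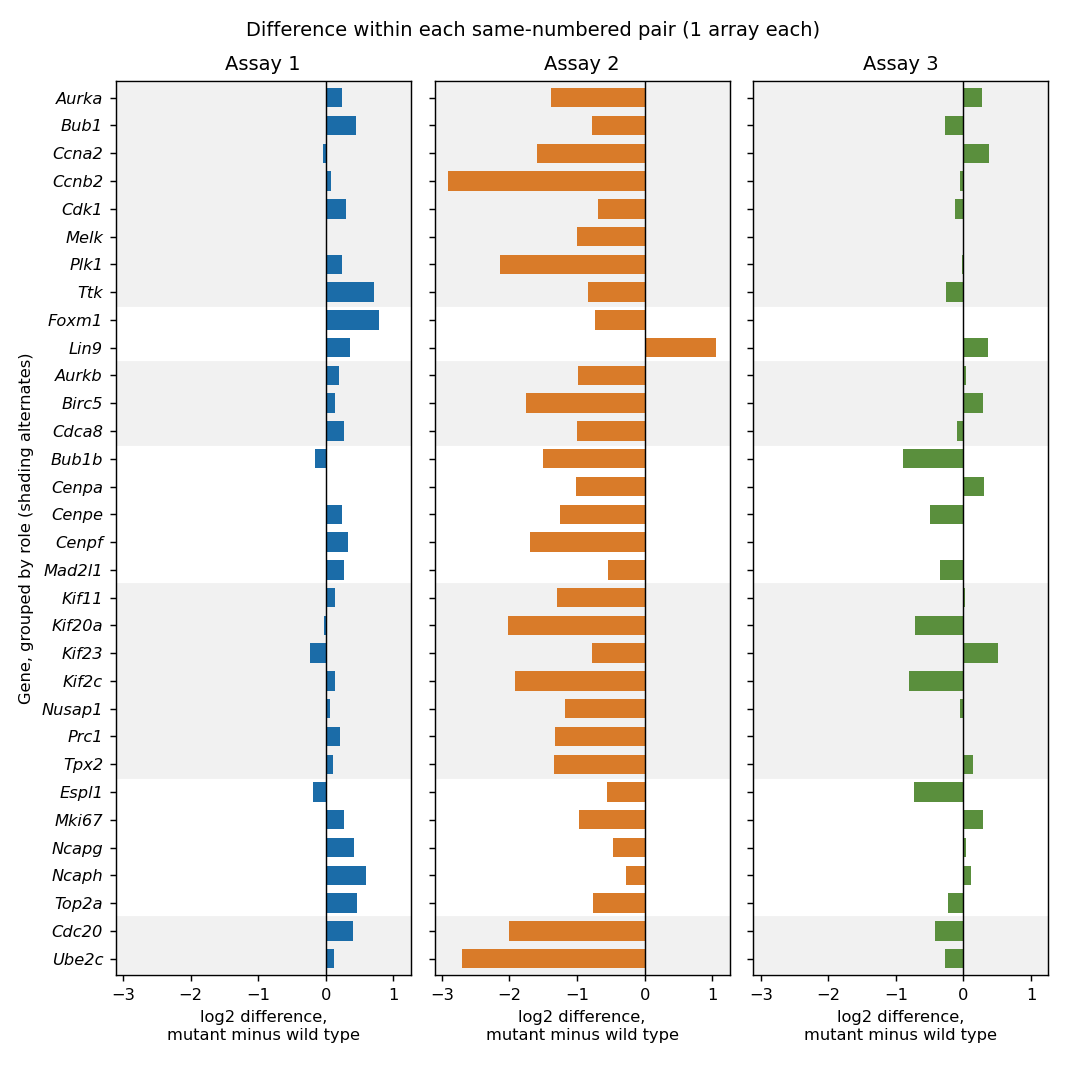
Horizontal bars give the log2 difference of the mutant array from the wild-type array of the same assay for each of the 32 genes, 1 panel per assay, grouped by role. In assay 2 all bars but that of Lin9 point to lower levels in the mutant, while most bars of assay 1 point the other way and those of assay 3 go both ways.

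Averaged over the 3 assays, the mutant mean was lower for 29 of the 32 genes (48.3% of all probe sets) and higher for Lin9, Ncaph and Foxm1 (51.7%). The median of the 32 log2 differences was -0.34. None passed in either direction by limma, adjusted over all probe sets (0% of all probe sets passed, with the replicate number as a block or without it, and 0.00445% as lower with it as a random effect), and the smallest adjusted p among the 32 by limma was 0.99998. With the replicate number as a block it was 0.859. At an unadjusted p under 0.05, limma gave 0 lower and 1 higher member without the block, and 2 lower and 1 higher with it. Of all 22497 probe sets, 146 were lower and 52 higher at that threshold without the block, and 626 and 563 with it. The median was 0.11 without both arrays of assay 2. Only 3 of the 32 were lower in every pair (11.7% of all probe sets were) and 1 was higher in every pair (13.8% were), shares that are close to or below the background. The 3 are Bub1b, Kif20a and Espl1, and the 1 is Lin9. When each gene was the mean of all its probe sets, 2 were lower and 1 higher in every pair. The values of both groups did not overlap for 1 member, Lin9, higher in the mutant (1.47% of all probe sets), and for 0 lower members (1.59%).

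Among the roles, the members that act with the anaphase-promoting complex, Ube2c and Cdc20, had the lowest median log2 difference in assay 2, -2.35. Ube2c, the ubiquitin-conjugating enzyme that works with this complex, read 4048, 243 and 175 on mutant arrays 1, 2 and 3, and 3705, 1681 and 215 on wild-type arrays 1, 2 and 3. The arrays of assay 1 were high and those of assay 3 low in both groups. On the log2 scale, the mutant of assay 2 lay near the low level and the wild type of assay 2 nearer the high one. The mutant of assay 2 was thus 6.54-fold lower, while over all assays the groups overlapped (log2 difference -0.95 ± 1.59 SE; limma, adjusted p = 0.99998). This SE also holds the differences between assays. With the replicate number as a block it was 0.63 (limma, adjusted p = 0.863). Cdc20, which activates the complex once chromosomes are attached, read 2350.2, 333 and 275 on the mutant and 1764, 1380.5 and 374 on the wild-type arrays, a log2 difference of -2.00 in assay 2.

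Among the mitotic cyclins and kinases, Ccnb2 had the largest difference of all members in assay 2. Ccnb2, a B-type cyclin, read 2166, 143 and 164 on the mutant and 2061, 1178 and 171 on the wild-type arrays. In assay 2 its mutant level was 7.52-fold lower and lay below both arrays of assay 3, while in assays 1 and 3 the pair differed by 0.07 and -0.06 on the log2 scale. Ccna2, the cyclin of replication and early mitosis, read 1742, 243 and 92.5 against 1798, 765 and 67.9, which is 3.02-fold lower in the mutant of assay 2. Cdk1, the kinase these cyclins activate, read 2383, 583 and 246 against 1938, 946 and 269.8. The kinase thus differed less in assay 2, at -0.68 on the log2 scale, than its cyclin partners.

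Plk1, the polo-like kinase of mitotic entry and spindle formation, read 1044, 92.4 and 42.1 on the mutant and 883, 460.2 and 42.9 on the wild-type arrays. It was 4.39-fold lower in the mutant of assay 2 and differed by 0.24 and -0.02 on the log2 scale in assays 1 and 3. Aurka, the kinase of the spindle poles, read 769, 105 and 39.8 against 649, 298 and 30.1, and was 2.60-fold lower in the mutant of assay 2. The checkpoint kinases Bub1 and Ttk and the kinase Melk differed there by -0.77, -0.84 and -0.99. Ttk was dim in assay 3, at 8.90 and 13.7 in mutant and wild type, so that its differences from that assay are understated.

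The promoters of Ccnb2, Ube2c, Plk1, Cdc20, Ncaph, Ncapg and Mad2l1 are shown. The first 4 are among the 5 members with the largest difference in assay 2. Kif20a, the other of these 5, had no window in the promoter annotation used. Ncaph, Ncapg and Mad2l1 are the 3 members whose differences there were smallest. This choice was made after the values were seen and rests on 1 pair of arrays. Whether the letters go with the size of the difference was not tested. Each window runs from 250 bases before to 50 bases after the gene's start, as RefSeq gives it for assembly GRCm38.p6, and is written 5′ to 3′ on the gene's strand. Capitals mark the letters TTTGAA or TTCGAA, the core of the element through which MuvB binds cell cycle promoters, and CCAAT, the box bound by NF-Y, in either orientation. TTCGAA reads the same on both strands, and a match of one kind can share at most 1 base with the other. The windows are at chr9:70421505-70421804 (Ccnb2, minus strand), chr2:164769679-164769978 (Ube2c, plus strand), chr7:122159185-122159484 (Plk1, plus strand), chr4:118437294-118437593 (Cdc20, minus strand), chr2:127133905-127134204 (Ncaph, minus strand), chr5:45669675-45669974 (Ncapg, plus strand) and chr6:66534971-66535270 (Mad2l1, plus strand).
Ccnb2: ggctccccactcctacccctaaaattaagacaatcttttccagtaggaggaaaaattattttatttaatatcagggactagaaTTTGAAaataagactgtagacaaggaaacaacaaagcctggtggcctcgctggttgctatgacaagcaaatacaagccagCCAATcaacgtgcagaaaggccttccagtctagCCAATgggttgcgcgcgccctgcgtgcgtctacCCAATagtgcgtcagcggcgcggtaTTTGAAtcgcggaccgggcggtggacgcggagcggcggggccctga
Ube2c: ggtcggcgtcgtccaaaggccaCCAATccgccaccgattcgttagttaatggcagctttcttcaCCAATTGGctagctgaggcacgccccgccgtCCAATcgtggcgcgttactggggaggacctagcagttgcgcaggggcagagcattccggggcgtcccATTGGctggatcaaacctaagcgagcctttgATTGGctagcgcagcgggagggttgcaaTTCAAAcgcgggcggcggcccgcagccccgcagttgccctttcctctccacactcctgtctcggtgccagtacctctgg
Plk1: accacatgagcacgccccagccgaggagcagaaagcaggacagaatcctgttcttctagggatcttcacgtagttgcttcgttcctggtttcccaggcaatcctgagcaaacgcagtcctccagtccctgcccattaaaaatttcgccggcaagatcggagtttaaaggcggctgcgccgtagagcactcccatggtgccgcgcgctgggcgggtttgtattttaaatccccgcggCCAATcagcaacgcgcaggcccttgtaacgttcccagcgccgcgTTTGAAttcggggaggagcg
Cdc20: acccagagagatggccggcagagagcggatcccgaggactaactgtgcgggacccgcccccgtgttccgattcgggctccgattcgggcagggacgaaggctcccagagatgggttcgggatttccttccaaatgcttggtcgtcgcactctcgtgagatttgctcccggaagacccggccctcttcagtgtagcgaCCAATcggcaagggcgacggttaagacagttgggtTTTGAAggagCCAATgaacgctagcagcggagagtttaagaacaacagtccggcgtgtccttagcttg
Ncaph: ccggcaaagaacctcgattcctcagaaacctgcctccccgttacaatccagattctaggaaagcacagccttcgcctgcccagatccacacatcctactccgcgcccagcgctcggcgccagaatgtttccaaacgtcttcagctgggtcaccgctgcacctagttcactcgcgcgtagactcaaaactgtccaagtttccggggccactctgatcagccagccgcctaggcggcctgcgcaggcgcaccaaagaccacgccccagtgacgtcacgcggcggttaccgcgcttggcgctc
Ncapg: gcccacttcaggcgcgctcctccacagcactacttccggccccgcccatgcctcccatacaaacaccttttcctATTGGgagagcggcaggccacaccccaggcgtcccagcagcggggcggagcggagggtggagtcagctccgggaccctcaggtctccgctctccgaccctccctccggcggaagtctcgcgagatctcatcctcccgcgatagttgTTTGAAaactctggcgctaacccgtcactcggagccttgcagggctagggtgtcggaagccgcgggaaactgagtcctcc
Mad2l1: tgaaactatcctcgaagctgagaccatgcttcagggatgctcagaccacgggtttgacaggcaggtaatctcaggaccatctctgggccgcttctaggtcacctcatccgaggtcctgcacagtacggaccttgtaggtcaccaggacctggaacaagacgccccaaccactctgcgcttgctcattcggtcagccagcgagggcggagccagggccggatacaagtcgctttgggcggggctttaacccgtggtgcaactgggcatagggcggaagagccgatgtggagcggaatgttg

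The RefSeq table held promoters of 26 of the 32 measured members. Of these 26, 20 (76.9%) had TTTGAA or TTCGAA, where 21.7% of the 27025 genes in the table did. CCAAT was in 20 (76.9%), where 41.1% of all genes had it, and 19 members (73.1%) had both, against 9.65% of all genes. The windows of Ccnb2 and Ube2c held 2 and 1 matches of the first kind and 3 and 6 of the second. Those of Plk1 and Cdc20 held 1 of the first kind each, and 1 and 2 of the second. The windows of 5 members (Birc5, Mad2l1, Melk, Ncaph and Nusap1) had neither set of letters, and these genes differed in assay 2 by -1.76, -0.54, -0.99, -0.28 and -1.19. Ncapg, with -0.47, had 1 match of each kind. A match describes the letters of the window and is no evidence of binding.

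Of the 2 transcription members, by their brightest probe sets, Foxm1 had the order of pairs of most other members and Lin9 did not. Foxm1, which switches on many of the other members, read 325, 31.8 and 10.8 on the mutant and 181, 63.6 and 10.8 on the wild-type arrays. Its pairs differed by 0.79, -0.74 and 0.00 on the log2 scale. The other probe set of Foxm1 that passed the filter read 9.01 to 94.8. It had another order, with differences of -0.29, -0.44 and 0.48 in assays 1, 2 and 3. Lin9 read 156, 145 and 132 on the mutant and 118, 61.0 and 99.6 on the wild-type arrays. It was the 1 member that was higher on every mutant array than on any wild-type array, with a log2 difference of 0.59 ± 0.23 SE, an unadjusted p of 0.0444 by limma and an adjusted p of 0.99998. With the replicate number as a block the SE was 0.18 (limma, adjusted p = 0.859, unadjusted p = 0.0314). The other probe set of Lin9 that passed the filter was dim (8.71 to 30.2), and differed by 0.69, -0.12 and 0.34 in assays 1, 2 and 3.

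The chromosomal passenger complex corrects faulty attachments of chromosomes and guides cell division. Birc5, its survivin subunit, read 2831, 352 and 191 on the mutant and 2582, 1229.8 and 154 on the wild-type arrays, which is 3.39-fold lower in the mutant of assay 2. Aurkb, its kinase, read 1374, 207 and 223 against 1191, 424 and 216, and Cdca8, its borealin subunit, 1905, 335 and 136 against 1570.2, 687 and 146. Aurkb and Cdca8 were 1.97-fold and 2.00-fold lower in the mutant of assay 2. In assays 1 and 3 the 3 subunits differed by -0.09 to 0.28 on the log2 scale.

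Kinetochore and checkpoint genes had a median log2 difference of -1.25 in assay 2, where all 5 were lower. Cenpf, a large protein of the outer kinetochore, read 655, 45.6 and 31.9 on the mutant and 517, 184 and 31.8 on the wild-type arrays. Cenpe, a kinetochore motor, read 564, 54.0 and 35.3 against 476, 150.1 and 56.5. Bub1b, a checkpoint protein that inhibits the anaphase-promoting complex, read 1111, 183 and 125 against 1242, 547 and 245 and was lower in all 3 pairs, by -0.16, -1.50 and -0.89. Its difference over all assays was -0.85 ± 0.98 SE (limma, adjusted p = 0.99998). With the replicate number as a block the SE was 0.28 (limma, adjusted p = 0.859, unadjusted p = 0.0412). Another bright probe set of Bub1b was not lower in every pair, with differences of 0.18, -1.33 and -0.44 in assays 1, 2 and 3. A dim one (7.05 to 29.3) differed by -0.01, -0.47 and -0.20. Mad2l1, which acts with Bub1b in the checkpoint, differed by -0.54 in assay 2.

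Cenpa, the histone variant that marks the centromere, had another order of arrays than the other members of this role. It read 1360.4, 364 and 790.4 on the mutant and 1345, 750.0 and 636 on the wild-type arrays. Its lowest reading was thus mutant array 2, and assay 3 read above assay 2 in the mutant and below it in the wild type.

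All 7 motor and spindle genes were lower in the mutant of assay 2, their median log2 difference being -1.32, and 6 were at least 2-fold lower. Kif20a, a motor of cell division, read 917, 73.5 and 36.6 on the mutant and 931, 349 and 70.4 on the wild-type arrays, a 4.08-fold difference in assay 2. Kif2c, which removes tubulin from microtubule ends at kinetochores, read 673, 86.0 and 44.3 against 612, 370.4 and 89.4, a 3.79-fold difference. Kif11, the motor that separates the spindle poles, Tpx2, which activates Aurka on the spindle, Prc1, which bundles microtubules of the central spindle, and Nusap1, which binds spindle microtubules, differed there by -1.30, -1.33, -1.32 and -1.19. Kif23, a motor of the central spindle, differed least in this role, by -0.78, and was 0.51 higher in the mutant of assay 3. Its other probe set that passed the filter differed by -1.02 in assay 2 and -0.03 in assay 3.

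Genes of chromosome structure and separation differed less in assay 2, at a median of -0.56 on the log2 scale and 0 of 5 at least 2-fold lower. Mki67, which codes for the proliferation antigen Ki-67 that coats mitotic chromosomes, read 6381, 954 and 417 on the mutant and 5276, 1886 and 339 on the wild-type arrays. Top2a, the topoisomerase that untangles sister chromosomes, read 4293, 687 and 178 against 3116, 1175 and 211. The condensin genes Ncapg and Ncaph differed by -0.47 and -0.28 in assay 2 and by 0.42 and 0.60 in assay 1. Espl1, the separase that cuts cohesin, read 334, 169 and 107 against 385, 258 and 188 and was lower in each pair, by -0.20, -0.56 and -0.72 (over all assays -0.49 ± 0.46 SE; limma, adjusted p = 0.99998, unadjusted p = 0.0208 with the replicate number as a block). With that block the SE was 0.13 (limma, adjusted p = 0.859).

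**Figure D2:**
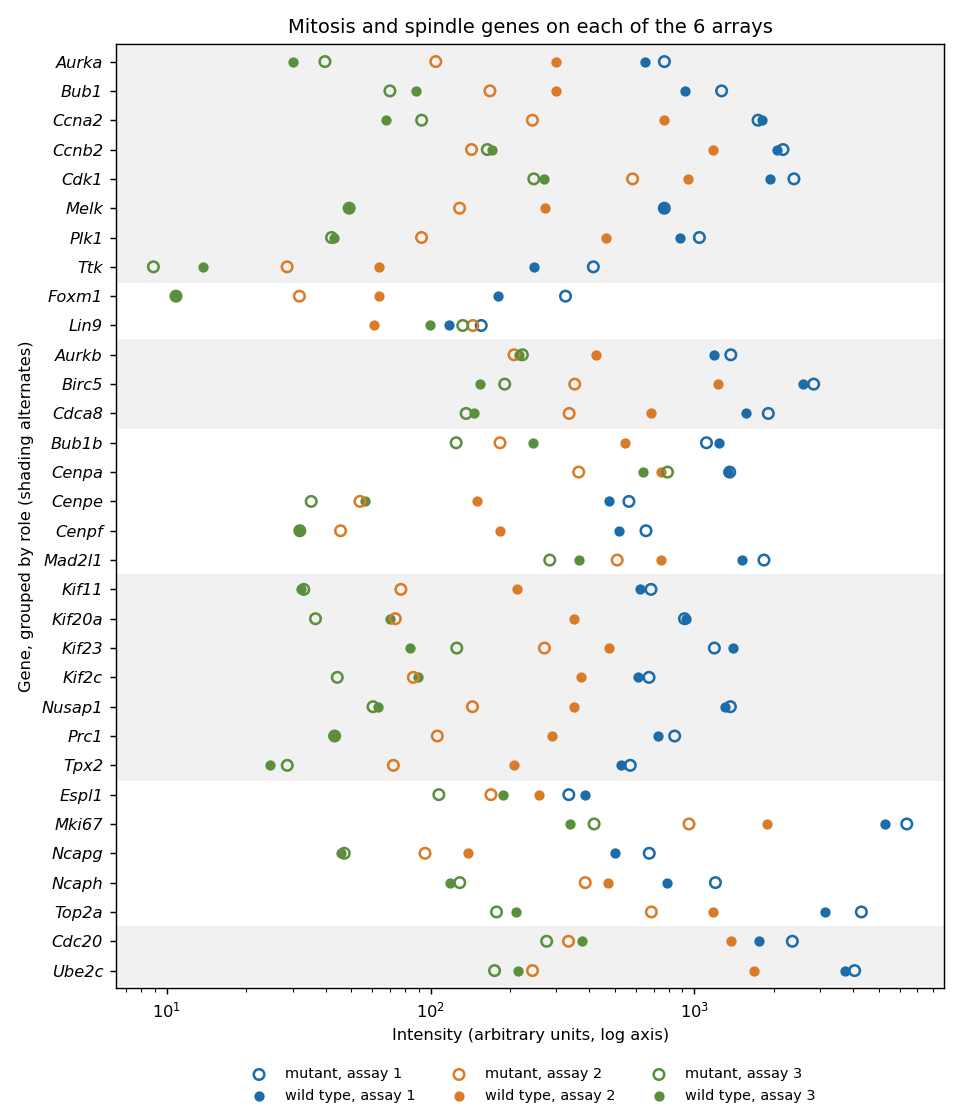
Points give the intensity of each gene on each array on a log axis, with open circles for the mutant, filled circles for the wild type and a colour for each assay, grouped by role. Assay 1 lies to the right of all other arrays for 31 of the 32 genes, and in assay 2 the mutant lies to the left of the wild type for 31.

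Between assays the same genes spanned a larger range than between receptors. Both arrays of assay 1 lay above the other 4 arrays for 31 of the 32 genes (13.7% of all probe sets), Lin9 being the exception. Both arrays of assay 3 lay below the other 4 for 23 genes (27.6% of all probe sets). Wild-type array 2 lay between assays 1 and 3 for 30 genes. The median log2 level of the 32 genes was 10.19, 7.42 and 6.85 on mutant arrays 1, 2 and 3, and 9.88, 8.69 and 6.71 on wild-type arrays 1, 2 and 3, whereas that of all probe sets tested was 7.47 to 7.50.

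Assay 3 was lower than assay 1 by a median of 11.6-fold over the 32 genes, and 30 were at least 2-fold lower (5.27% of all probe sets), with log2 differences from -4.23 to -0.21 in a limma fit with group and assay. Of the 32, 28 passed over all probe sets, all lower, where 9.05% of all probe sets passed as lower and 9.49% as higher. Ccna2 had the largest difference, -4.23 ± 0.53 SE (limma, adjusted p = 0.0228), followed by Ube2c with -4.21 ± 0.78 (limma, adjusted p = 0.0397), Top2a with -4.13 ± 0.32 (limma, adjusted p = 0.0167) and Nusap1 with -4.12 ± 0.36 (limma, adjusted p = 0.0167). The 4 that did not pass were Ccnb2 (-3.54 ± 0.85 SE; limma, adjusted p = 0.0644), Cdc20 (-2.61 ± 0.62; limma, adjusted p = 0.0632), Cenpa (-0.92 ± 0.36; limma, adjusted p = 0.159) and Lin9 (-0.21 ± 0.22; limma, adjusted p = 0.562). Each assay is 2 arrays here, and the count of 28 was 0 without the filter on dim probe sets, with a smallest adjusted p of 0.0799 by limma. It was also 0 without any 1 of the 4 arrays of assays 1 and 3, and 31 without both arrays of assay 2 or without either of them. Leaving out 1 array of assay 2 or both amounts to the same fit for this contrast. The arrays of assay 3 were also those with the summed stromal marker intensities of 5187 and 3737. Cd34 was highest in assay 1 and Sox4 in assay 3. The part of these cells in the differences was not tested.

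Assay 2 lay between the others. Against assay 1 it was lower by a median of 4.02-fold, and 30 of the 32 genes were at least 2-fold lower (4.35% of all probe sets were). By limma 0 passed (0% of all probe sets did), the adjusted p lying between 0.0609 and 0.300, while 29 had an unadjusted p under 0.05 and were lower (12% of all probe sets). In the same contrast 18 passed with a filter at the 70th percentile, and 12 without the group term. Assay 3 was lower than assay 2 by a median of 2.73-fold, and 25 genes were at least 2-fold lower (4.46% of all probe sets). By limma 8 passed, all lower (10.9% of all probe sets passed as lower and 11.1% as higher). These 8 were Mki67, Top2a, Cdk1, Kif23, Nusap1, Melk, Cdca8 and Ncaph, with differences from -2.13 (Top2a) to -1.47 (Cdk1). The 8 were 17 with the filter at the 70th percentile, 14 with a pseudocount of 1 or without the group term, 2 with a pseudocount of 64 and 0 without the filter. They were 5 without wild-type array 2, and 0 without any other single array or without both arrays of assay 1. For this contrast, leaving out 1 array of assay 1 or both amounts to the same fit.

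**Figure D3:**
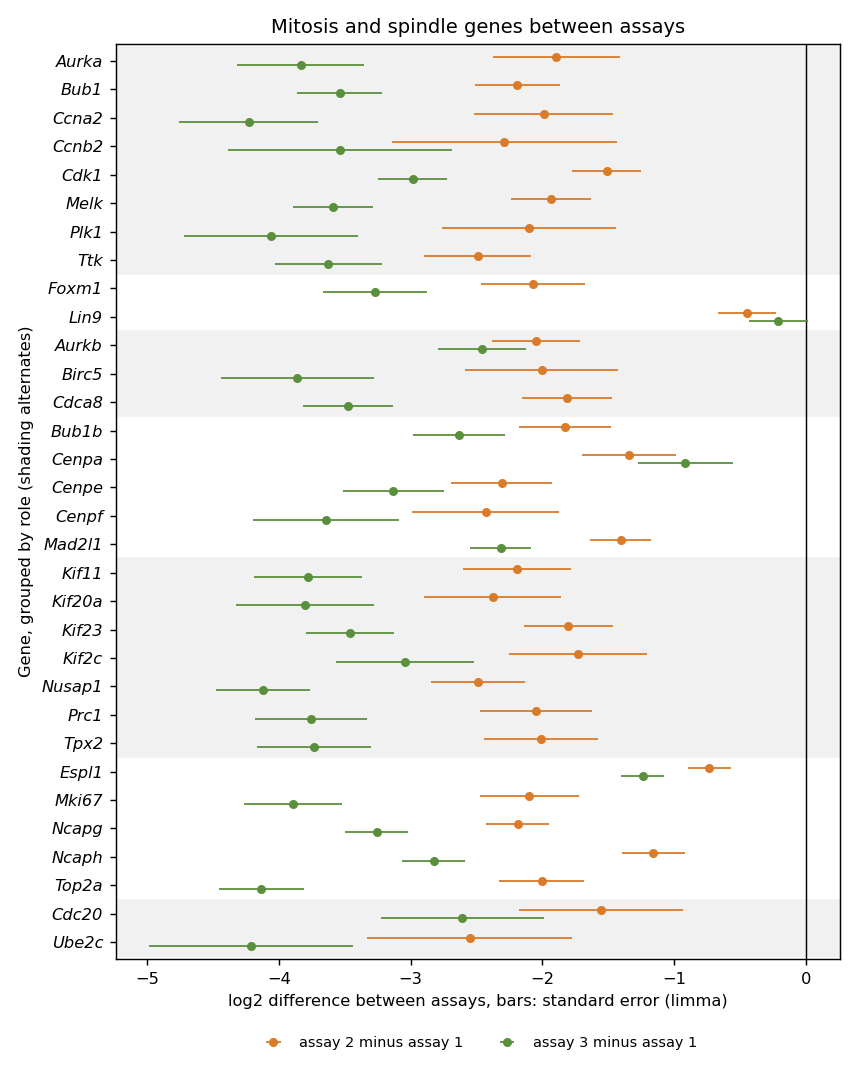
Points give the log2 difference of assay 2 and of assay 3 from assay 1 for each gene, with limma standard errors as bars, averaged over mutant and wild type. Lin9 and Cenpa lie nearest to 0 in assay 3, at -0.21 and -0.92, and Ccna2 lies farthest from it, at -4.23.

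Of 36 further probe sets of these genes, 21 passed the filter. In the mutant of assay 2 all 21 were lower (45.9% of all probe sets were), among them the second probe set of Lin9, which goes against its main one. All 21 had a lower fitted level in assay 3 than in assay 1. The sign of the pair difference was opposite to that of the gene's main probe set for 6 of the 21 in assay 1, 1 in assay 2 and 9 in assay 3. A second probe set of Cdc20, for example, differed by -0.35 in assay 1 against 0.41 for the main one. Sizes could also differ. A second probe set of Top2a differed by -0.15 in assay 2, against -0.76 for the brighter one, and that of Ccna2 by -1.51 against -1.59.

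Genes of the same process that are not members had a like order of pairs. They were read on the same arrays and so give no separate check of the pair of assay 2. Of 59 other mitosis genes 55 were tested, and 51 of these read lower in the mutant of assay 2 (45.9% of all probe sets did). Their median log2 difference there was -0.64. In assay 1 their median was 0.28 and in assay 3 -0.01. The securin gene Pttg1 read 3542 and 4153 on the mutant and wild-type arrays of assay 1, 727 and 2121 in assay 2, and 540.3 and 652 in assay 3. Psrc1, which binds spindle microtubules, read 13.3 (mutant) and 147 (wild type) in assay 2, while both arrays of assays 1 and 3 read 111 to 184. Between assays 3 and 1, 49 of the 55 passed as lower by limma and 0 as higher, where 9.05% and 9.49% of all probe sets did.

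Genes of DNA replication, which act before mitosis in the cycle, went the other way in assay 2. Of 35 listed, 32 were tested, and 28 of these read higher in the mutant of assay 2 (54.1% of all probe sets did). Their median log2 difference there was 0.68. In assay 1, 31 were higher (47.1% of all probe sets), with a median of 0.61. In assay 3, 14 were higher (53.6%) and 18 lower (46.4%), with a median of -0.02. Mcm4, a subunit of the replicative helicase, read 1025 and 492 on the mutant and wild-type arrays of assay 1, 1325 and 572 in assay 2, and 324 and 386 in assay 3. By limma 0 of the 32 passed between the groups, with or without the replicate number as a block. At an unadjusted p under 0.05, limma gave 0 without the block and 4 with it, all higher. With the block, 563 of all 22497 probe sets were higher and 626 lower at that threshold. Between assays 3 and 1, 25 passed as lower (9.05% of all probe sets did), among them Tk1, the thymidine kinase (-4.57 on the log2 scale; limma, adjusted p = 0.0145), and E2f2, a transcription factor of replication genes (-2.76; limma, adjusted p = 0.0166). E2f2 read 414 and 276 in assay 1, 362 and 223 in assay 2, and 36.1 and 36.4 in assay 3.

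**Figure D4:**
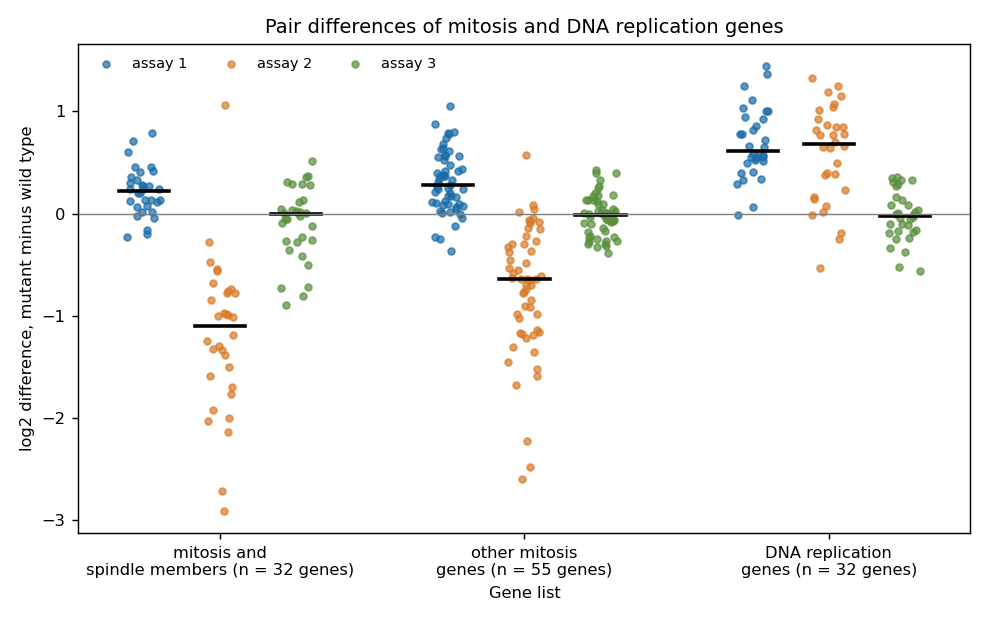
Points give the log2 difference of the mutant from the wild type for each gene in each assay, and black lines the medians, for the 32 members, 55 other mitosis genes and 32 DNA replication genes. In assay 2 the medians are -1.10, -0.64 and 0.68.

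Regulators of the cycle differed among themselves. The 11 other genes of the MuvB and DREAM complexes, which repress or activate mitosis genes, had pair medians of 0.19, 0.02 and 0.01 in assays 1, 2 and 3. The 15 other genes of the anaphase-promoting complex and its regulation had medians of 0.05, -0.09 and -0.05. Of 8 cyclins, kinases and regulators of the phase before replication, 3 passed as lower in assay 3 than in assay 1 (9.05% of all probe sets did), and Ccnd1, the cyclin D1 gene, read 2643, 3014 and 261 on the mutant and 1784, 1701 and 347 on the wild-type arrays. Of 7 genes of CDK inhibitors, which stop the cycle, 5 were tested, and all 5 were lower in the mutant of assay 2 (45.9% of all probe sets). Their pair medians were -0.11, -0.66 and -0.01. Cdkn1a, the p21 gene, was higher in assay 3 than in assay 1 by 0.98 on the log2 scale (limma, adjusted p = 0.0296), and Cdkn2c, which inhibits the kinases of cyclin D, was lower by -2.30 (limma, adjusted p = 0.0206). Cdkn2b, which inhibits the same kinases, read 31.7, 38.3 and 79.5 on the mutant and 194, 120.2 and 386 on the wild-type arrays, without overlap (limma, adjusted p = 0.99998). Of all probe sets, 1.59% were lower in the mutant without overlap.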

How the data were processed

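Expression was measured in 6 arrays. The authors deposited intensities, 1 per probe set and array, on a linear scale. GCOS and GCRMA are named in the submitters' processing notes, with no version or order. GCRMA includes quantile normalization, and dim values lie near a floor, which understates their differences. Groups and replicate numbers came from the sample titles.

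The 64 controls among 45101 probe sets were removed. The filter asked for a value above the array's own median (percentile 50) on at least 3 arrays, and 22497 probe sets passed. Values were taken as log2(intensity + 16) and compared by two-sided moderated tests from limma 3.58.1 under R 4.3.3, with no block between groups and with group and assay between assays. Benjamini-Hochberg adjusted p-values over all kept probe sets under 0.05 passed. SE are limma's moderated ones, and between groups they also hold the differences between assays. Deviations of same-numbered arrays from their group means correlated at 0.797, 0.671 and 0.845 and those of other pairs at -0.618 to -0.0138, which was read as pairing by number. The fits were tested on simulated data. Recovery of the changes put in was required only of the fit with group and assay. P-values between assays rest on how far the mutant minus wild-type difference varied over the assays. No assay had a second array of the same receptor.

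The members and lists were chosen with earlier results of these data known. All members are named. Of each other list, up to 4 genes with the smallest p between assays and 2 between groups could be named. The promoters shown and the roles' order were chosen after values were seen. Alternatives were 2 pseudocounts, 2 filters, quantile normalization, probe set means, arrays left out and 2 forms of the block.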

Additional observations from a re-analysis of the deposited data

Results flagged for a closer look

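The difference between mutant and wild type had opposite signs in different assays. The median over the 32 mitosis and spindle genes was 0.22 on the log2 scale in assay 1, -1.10 in assay 2 and -0.0086 in assay 3. The median over 55 other mitosis genes was 0.28 in assay 1, -0.64 in assay 2 and -0.0098 in assay 3. Of the 32 members, 26 were higher in the mutant of assay 1 and lower in that of assay 2. Each assay is 1 pair of arrays, so these differences between assays were not tested.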

How the results depend on the processing

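With the replicate number as a block, limma called 0 members and 0 probe sets between the groups, and with it as a random effect 0 members and 1 probe set. The other alternatives for these counts gave 0. The median difference of the members was -0.34. It was 0.43 without mutant array 3, 0.47 without wild-type array 1 and 0.11 without both arrays of assay 2, and it ranged from -1.37 to 0.47 over all arrays and assays left out. Leaving out 1 array also leaves the assays unequally spread over the groups. Genes lower in every pair numbered 3 to 16 and genes higher in every pair 1 to 14 with arrays or assays left out, since fewer pairs have to share a sign. The count of members at least 2-fold lower in the mutant of assay 2 was 11 with the mean of all probe sets and 12 to 21 otherwise. That result, its alternatives and the fits of 2 assays alone were chosen after seeing the data. Between assays 3 and 1 the count of 28 members was 0 without the filter and 0 to 31 with arrays or assays left out. Between assays 2 and 1 the count of 0 was 18 with a filter at percentile 70, and 12 without the group term, and 0 with each array left out. Between assays 3 and 2 the count of 8 was 14 with a pseudocount of 1, 2 with a pseudocount of 64, 0 without the filter, 17 with a filter at percentile 70, 14 without the group term, and 0 to 5 with arrays or assays left out. The cause of these changes was not tested. Dim genes near the floor, such as Ttk and Foxm1 in assay 3, limit the size of their differences.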
